A study of Hynobius leechii and Hynobius unisacculus and Hynobius quelpaertensis with 23 samples.

Results

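The translation initiation and elongation factors described here are the 65 gene symbols, of 13514 in 6 count tables, whose names begin with EIF followed by a digit from 1 to 6 or with EEF followed by 1 or 2. The rule used names only and no measured value, but it was set with earlier results of these data known. The 23 libraries measured polyadenylated RNA by sequencing in 15 adult Hynobius salamanders, which were taken from the wild and received no treatment. The animals fell into 6 lineages with a count table each: HC1, HC3 and LE, all labelled Hynobius leechii, then QU (H. quelpaertensis), UN (H. unisacculus) and YA (H. yangi). Liver was measured in 3 animals each of HC1, HC3 and LE and in 2 each of QU, UN and YA. Skin was measured in 1 animal each of HC1, HC3 and UN, and intestine in 1 animal of every lineage except HC3. The labels used here give no age or sex, and the extraction text speaks of embryos although every sample is labelled as adult tissue.

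Initiation factors bring the initiator tRNA, the messenger RNA and the small ribosomal subunit together, and elongation factors then carry aminoacyl-tRNAs to the ribosome and move it along the message. The eIF2 complex delivers the initiator tRNA, eIF2B recharges eIF2 with GTP, eIF3 is a scaffold on the small subunit, and the eIF4 proteins bind the cap and unwind the message. In the liver, which exports large amounts of plasma protein, phosphorylation of eIF2 and the binding of eIF4E by its partner proteins are known control points for protein output.

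Of the 65 symbols, 14 name eIF3 subunits, 9 name proteins of cap binding and unwinding, 6 name proteins of initiator tRNA delivery, 6 act in start codon choice and subunit joining, and 5 name eIF2B subunits. A further 4 name kinases that phosphorylate eIF2, 3 name partners of eIF4E, 3 name eIF5A proteins, 5 name elongation factor 1 subunits, and EIF6, EEF2 and the kinase EEF2K stand alone. The other 7 were matched by name and grouped apart as having another known role: EEF1E1 is a scaffold of the tRNA synthetase complex, EIF4A3 is a helicase of the exon junction complex, EIF2C1, EIF2C2 and EIF2C4 are older symbols of Argonaute proteins, and EIF1AD and the EEF1E1-MUTED readthrough are the remaining members. The HC1 table held 56 of the 65, HC3 47, LE 49, QU 41, UN 45 and YA 43, and 23 members were in all 6 tables while 6 were in only 1.

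Each table was assembled and counted on its own, so a symbol in 2 tables need not name the same stretch of the gene, which was not checked. Levels are given as whole-table CPM, meaning counts per 1000000 counts on named rows of the same table, unless fit CPM is stated. No row lengths were used, so levels are compared between libraries and not between genes. In these bulk samples, fewer cells of a type and less RNA per cell cannot be told apart.

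Livers held 8672566 to 19281948 counts, intestines 1703075 to 3390245 and skins 2552636 to 4628175. A count of 3 in a library corresponded to 0.156 to 0.346 CPM in livers, 0.885 to 1.76 in intestines and 0.648 to 1.18 in skins, and these floors cover counting error only. The livers of the 6 animals that also gave another tissue (HC1 liver 2, HC3 liver 2, LE liver 3, QU liver 1, UN liver 1 and YA liver 2) stood apart from the other 9 livers: 24.3 to 40.8% of their table's rows were at 0, against 0.654 to 15.9%, and 43.0 to 51.4% of their counts from 1 to 19 were odd numbers, against 11.3 to 18.2%. Of the members in the table, 9 to 21 were at 0 in those 6 livers and 0 to 8 in the other 9. The summed hepatocyte markers were at 18660 to 130547 CPM in livers, but also at 17507 in the YA intestine, 9066 in the QU intestine and 15212 in the HC3 skin, each with 8 of 10 markers in the table and none at 0, and at 22.4 to 4682 in the other intestines and skins. The intestinal epithelium markers were at 5747 to 20788 CPM in intestines against 7.31 to 121 in livers, and the keratinocyte markers at 18430 to 26284 in skins against 27.0 to 244 in livers. The summed pancreatic acinar markers ranged from 37.9 to 27518 CPM among the livers. The HC3 skin carried 14751 CPM of intestinal epithelium markers, against 862 in the HC1 skin and 1247 in the UN skin. The members together took 1.15 to 2.59% of the counts in livers, 0.933 to 1.58% in intestines and 1.92 to 2.98% in skins.

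In liver, most members were either plainly present or close to 0, according to the table. A row was called high where every liver of its table reached 10 CPM and low where none did, a description that was not tested. Of the 281 member rows over the 6 tables, 151 were high, 112 were low and 18 were mixed, so 53.7% were high against 32.8% of all 49173 rows. Of the 59 members found in 2 or more tables, 38 were high in some tables and low in others, and the number was also 38 without the 6 livers of the animals that gave several tissues. This was not particular to translation factors: among symbols in all 6 tables, 18 of 23 members (78.3%) and 77.5% of 2252 symbols were high in some tables and low in others. Of the 112 low member rows, 95 were at exactly 0 in the liver of their table's multi-tissue animal (84.8%, against 56.7% of all low rows). Whether the low rows reflect the animals or the assembly of each table was not tested.

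**Figure D1:**
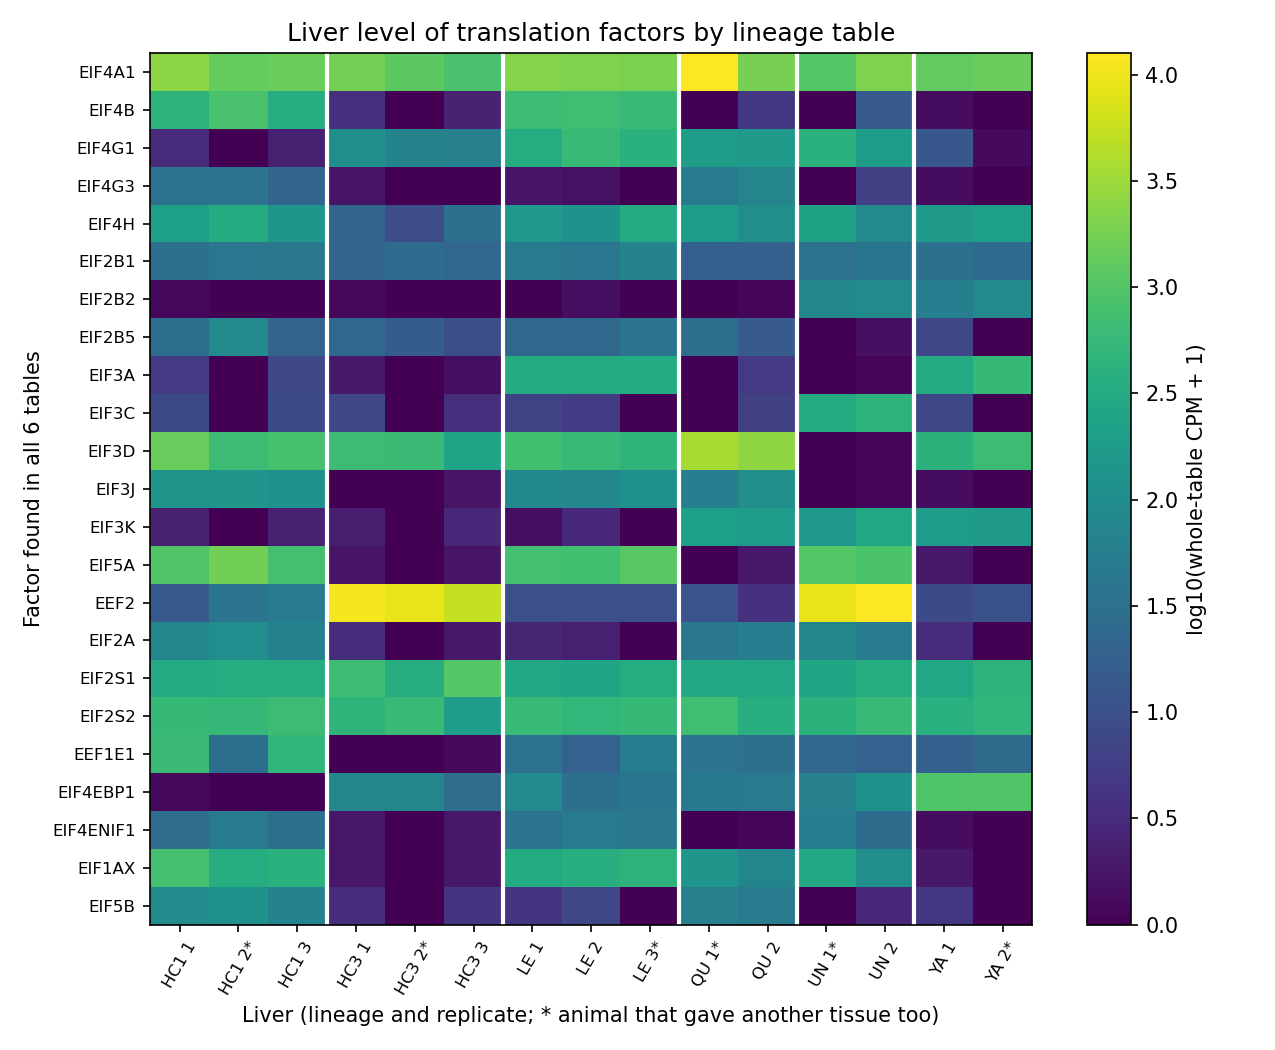
Each cell gives the whole-table CPM of a member (rows, ordered by role) in a liver library (columns, by lineage) on a logarithmic colour scale of CPM + 1. The rows are the 23 members found in all 6 tables. Most rows switch between bright and dark from one lineage's block to the next, while EIF2B1, EIF2S1, EIF2S2 and EIF4A1 are bright in all 6 blocks.

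Among the factors of initiator tRNA delivery, EIF2S1 and EIF2S2, the alpha and beta subunits of eIF2, were high in every liver. EIF2S1, which carries the serine that the eIF2 kinases phosphorylate, was at 319, 349 and 347 CPM in HC1 livers, 668, 360 and 1055 in HC3, 291, 252 and 340 in LE, 300 and 285 in QU, 268 and 344 in UN and 287 and 453 in YA. HC3 livers 1 and 3 stood above all others, and the remaining 13 lay within 252 to 453 CPM. EIF2S2 was at 557, 534 and 643 CPM in HC1 livers, 464, 573 and 196 in HC3, 581, 521 and 556 in LE, 688 and 391 in QU, 430 and 583 in UN and 403 and 493 in YA, so that the lineages overlapped. EIF2S3, the gamma subunit that binds GTP and the tRNA, was in 3 tables, at 425, 492 and 427 CPM in HC1, 375, 370 and 207 in HC3 and 363 and 545 in YA. EIF2A, an alternative carrier of initiator tRNA, was at 43.5 to 101 CPM in livers of HC1, QU and UN and at 2.48 CPM or below in those of HC3, LE and YA.

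Of the 5 eIF2B subunits, EIF2B1 was high in all 6 tables, at 17.0 to 67.8 CPM in the 15 livers. EIF2B2 was at 75.4 and 89.6 CPM in UN livers and 58.2 and 83.2 in YA livers, against 0.441 CPM or below in the 11 livers of the other lineages. EIF2B4 was at 37.4 to 64.2 CPM in LE and YA livers and at 0 and 0.125 in UN livers. The catalytic subunit EIF2B5 was at 8.51 to 86.1 CPM in livers of HC1, HC3, LE and QU, at 6.47 and 0 in YA livers and at 0 and 0.5 in UN livers. Of the eIF2 kinases, EIF2AK3 (PERK, which responds to stress of the endoplasmic reticulum) was at 29, 38.3 and 57.4 CPM in LE livers and at 0.386 CPM or below in HC1 livers. EIF2AK4 (GCN2, which responds to amino acid shortage) lay at 12.1, 16.2 and 16.1 CPM in HC1 livers, 10.8, 5.51 and 4.46 in HC3, 10.6 and 9.07 in QU and 1.04 or below in LE.

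Several eIF3 subunits were present in the livers of some lineages and near 0 in those of others. EIF3A, the largest core subunit, was at 332, 334 and 337 CPM in LE livers and 318 and 552 in YA livers, against 0 to 6.57 in the other 10. EIF3B, another core subunit, was at 848, 494 and 615 CPM in HC3 livers and at 0.644 or below in HC1 and UN, the other tables that held it. EIF3H was at 131 and 184 CPM in QU livers and at 0.461 or below in HC1, HC3, LE and UN livers. EIF3K was at 150 to 287 CPM in QU, UN and YA livers and at 1.99 or below in HC1, HC3 and LE livers. In liver this division set H. leechii apart from the other species, and how many symbols divide in this way was not counted. Outside liver, EIF3K was at 39.6 CPM in the LE intestine and 97.2 in the HC3 skin, and at 1.81 and 6.7 in the HC1 intestine and skin. EIF3J was at 56.4 to 136 CPM in HC1, LE and QU livers and at 0.623 or below in HC3, UN and YA. EIF3E and EIF3G were high in every table that held them, EIF3E at 325 to 436 CPM in LE and YA and EIF3G at 155 to 383 CPM in HC1, HC3 and UN.

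In cap binding and unwinding, the helicase EIF4A1 was high in all 15 livers, at 851 to 12234 CPM, with the top value in QU liver 1 and the next, 2455 CPM, in HC1 liver 1. The cap-binding protein EIF4E was at 107 and 133 CPM in YA livers and at 1.99 or below in the livers of HC1, HC3, LE and UN. The scaffold EIF4G1 was at 347, 593 and 422 CPM in LE livers, 201 and 164 in QU, 418 and 176 in UN and 110, 67.2 and 59.8 in HC3, against 2.08 or below in HC1 and 12 and 0.265 in YA. EIF4G2, a related scaffold that does not bind EIF4E, was at 208 to 450 CPM in LE, QU, UN and YA livers and at 0.461 or below in HC1. The helicase cofactor EIF4B was at 449, 832 and 360 CPM in HC1 livers and 638, 689 and 612 in LE livers, against 13.6 or below in the other lineages. Among factors of start codon choice, EIF1AX was at 76.5 to 766 CPM in HC1, LE, QU and UN livers and at 0.925 or below in HC3 and YA, EIF1 was at 634 and 521 in YA and 0.125 or below in HC1 and UN, and EIF5 was at 448, 300 and 254 in HC3 and 1.15 or below in the 4 other tables that held it.

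EIF5A, the hypusine-bearing factor that helps the ribosome through difficult peptide bonds, was at 973, 1706 and 788 CPM in HC1 livers, 740, 710 and 1090 in LE and 1031 and 881 in UN, against 0 to 0.925 in HC3, QU and YA livers. Its paralog EIF5A2 was at 65.4, 90.9 and 69.4 CPM in HC3 livers, 46.1, 41.6 and 25.6 in LE and 0 in both UN livers. Reads of such paralogs could be split between them by the authors' counting, so both values are uncertain, as are those of EIF5AL1, EEF1A1 and EEF1A2, EIF1 and EIF1B, EIF3C and EIF3CL, and EIF4A1 and EIF4A2. Of the elongation factor 1 subunits, EEF1B2 was at 899 to 2745 CPM in HC1, HC3, LE and QU livers and EEF1D at 736 to 1497 in LE, QU and UN livers. EEF1G was at 1813 to 3436 CPM in HC1, HC3, QU and YA livers, and it had no count in either UN liver. EEF1A1, which carries aminoacyl-tRNA to the ribosome, was at 5382, 3409 and 3033 CPM in HC1 livers, 3259 and 3083 in YA, 519 and 4922 in UN and only 35.1, 57.7 and 4.67 in HC3. EIF6, which keeps the large ribosomal subunit from joining too early, was high in the 4 tables that held it, at 111 to 276 CPM.

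EEF2, the translocase of the ribosome, divided the lineages into a high and a low group. It was at 11058, 9201 and 5456 CPM in HC3 livers and 9217 and 12630 in UN livers. In the other livers it was at 12.9, 36.6 and 49.0 CPM in HC1, 8.85, 9.16 and 9.21 in LE, 10.3 and 2.82 in QU and 7.30 and 9.34 in YA. No liver lay between 49.0 and 5456 CPM. HC1, HC3 and LE carry the same species label, and HC3 stood on the high side while HC1 and LE stood on the low side.

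The lineages were compared over the 15 livers with edgeR's quasi-likelihood test on the 2251 symbols that were in all 6 tables and passed the filter on low counts, with a term for livers of multi-tissue animals and Benjamini-Hochberg adjustment. A lineage difference was called in 78.7% of all symbols and in 17 of the 23 members, a share of 73.9% and so no higher than the background. The 6 members without a call were EIF2S2 (edgeR adjusted p = 0.932), EIF2B1 (0.716), EIF4H (0.126), EIF2S1 (0.108), EIF2B5 (0.0901) and EIF4A1 (0.0861). A missed threshold does not show that their levels are alike, and EIF2S1, EIF2B5, EIF4H and EIF4A1 were each called in a contrast of 1 lineage.

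Each lineage was then set against the equally weighted mean of the other 5, in contrasts that share samples. HC1 livers had 15 members called (52.6% of all symbols were), 10 higher (30.4% of symbols) and 5 lower (22.3%). HC3 livers had 10 called (44.2%), 3 higher (27.7%) and 7 lower (16.5%), and LE livers had 11 called (51.2%), 8 higher (33.9%) and 3 lower (17.4%). QU livers had 12 called (41.9%), 9 higher (31.4%) and 3 lower (10.6%), UN livers had 13 called (43.8%), 9 higher (26.9%) and 4 lower (16.9%), and YA livers had 11 called (41.0%), 4 higher (26.8%) and 7 lower (14.3%). EEF2 was higher in HC3 by 8.21 ± 0.57 (log2, SE, edgeR adjusted p = 7.06e-06) and in UN by 8.09 ± 0.58 (adjusted p = 1.17e-05). EIF2S1 was higher in HC3 by 1.71 ± 0.51 (adjusted p = 0.0183), EIF4H, a cofactor of the helicase, was lower there at -2.33 ± 0.70 (adjusted p = 0.0186), and EIF4A1 was higher in QU by 2.48 ± 0.69 (adjusted p = 0.0134). The EIF4A1 call rested on QU liver 1, a multi-tissue liver: without it the edgeR value was 0.54 (adjusted p = 0.696), and without all 6 multi-tissue livers it was 0.39 (adjusted p = 0.585). The EIF2S1 call was lost without HC3 liver 3 (1.19, edgeR adjusted p = 0.131), and the EIF4H call without HC3 liver 1 (-2.23, adjusted p = 0.0719) or HC3 liver 2 (-1.79, adjusted p = 0.0807). In HC3, 16 members were called with DESeq2 (65.2% of symbols) and 19 by edgeR without the multi-tissue livers (61.1%). Without the term for those livers, 7 were called in QU (29.2%) and 7 in YA (25.8%). Leaving out the lineage's own multi-tissue liver gave the fewest calls of any liver left out, from 15 to 9 in HC1, 10 to 5 in HC3 and 11 to 7 in LE. The shares of all symbols called in these refits are not set beside them, so no fall particular to the members can be read from these counts.

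A member was listed as high in the livers of 1 lineage only where the lowest liver of that lineage was at least 2 times the highest liver of every other, and at least 10, in fit CPM (scaled by TMM on the shared symbols). This held for 3 of 23 members, EIF4EBP1, EIF3C and EIF3D, and for 12.3% of the 2251 symbols, so the members' share was near the background. Just outside were EIF4G3 in QU, at a ratio of 1.47, EIF2S1 in HC3 at 1.11 and EIF4A1 in QU at 1.03. In whole-table CPM EIF3D in QU did not reach the ratio of 2, and 2 members were listed (12.3% of symbols). At a ratio of 1, 6 members were listed (29.9% of symbols), and without the multi-tissue livers also 6 (26.3%).

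EIF4EBP1, the repressor that holds EIF4E until mTOR signalling releases it, was high in YA livers. It was at 933 and 968 CPM there, against 73.3, 74.4 and 28.6 in HC3 livers, 91.7, 31.6 and 38.2 in LE, 44.8 and 45.7 in QU, 59.5 and 120 in UN and 0.231, 0 and 0 in HC1. The YA livers lay above all others and the HC1 livers below all others, while HC3, LE, QU and UN overlapped. The YA contrast gave 5.59 ± 0.76 (log2, SE, edgeR adjusted p = 0.000396), and without the livers of multi-tissue animals it gave 5.60. The mean of the other lineages holds the HC1 livers near 0, which raises these log2 values. In fit CPM the lower YA liver was 4.46 times the highest liver of another lineage, UN liver 2. In the YA intestine EIF4EBP1 was at 38.1 CPM, beside 17.8 in LE, 49.9 in QU and 32.4 in UN intestine. The YA intestine held 17507 CPM of hepatocyte markers beside 39001 and 27466 in the YA livers, and the part of this in its values was not tested. The summed acinar markers, of which 8 of 12 were in the YA table, were at 49.0 CPM in YA liver 1 and 3900 in YA liver 2, while EIF4EBP1 was at 933 and 968. EIF4E itself was also high in YA alone among the tables that held it, and EIF4EBP2, a second repressor, was at 195 and 249 CPM in YA livers against 23 to 95.4 in HC1, HC3, QU and UN livers.

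**Figure D2:**
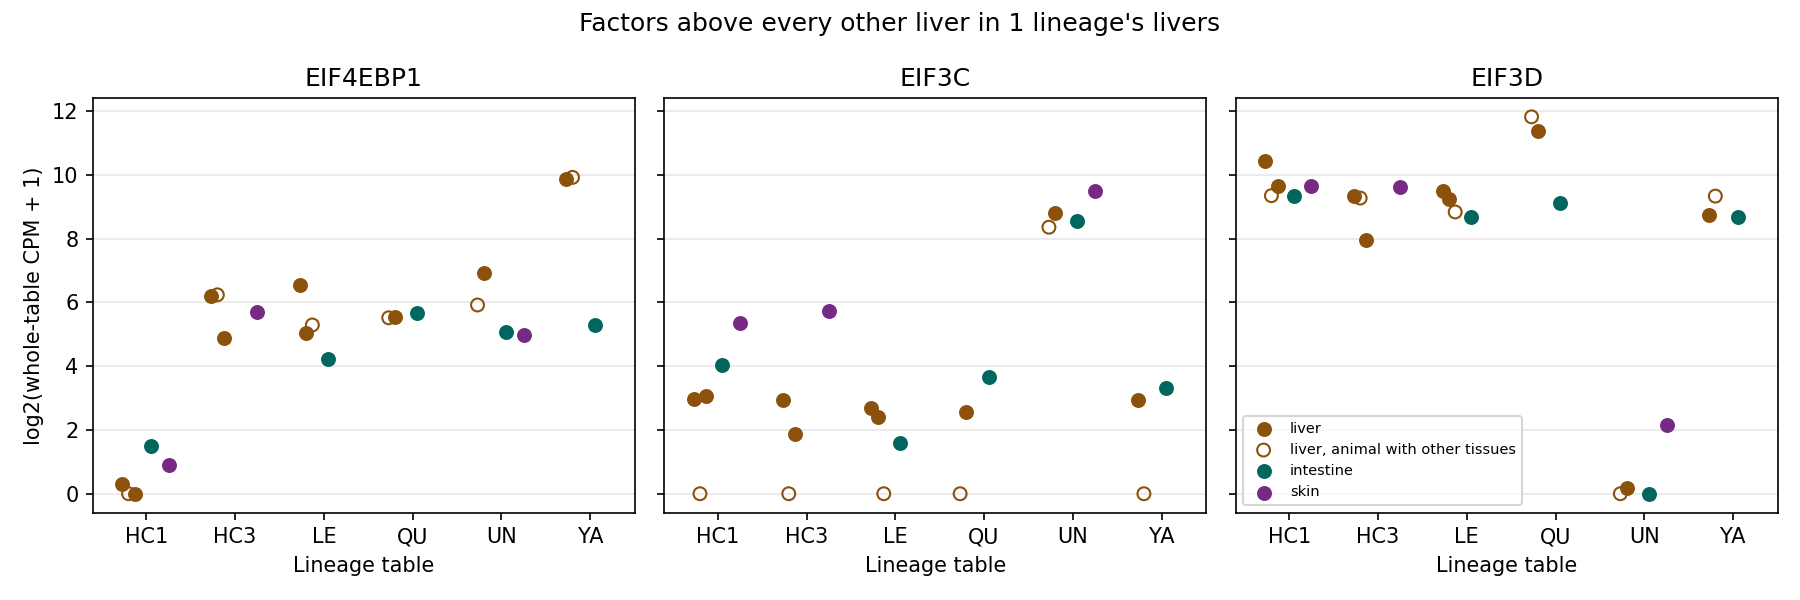
Points give the whole-table CPM (log axis) of EIF3C, EIF3D and EIF4EBP1 in every library by lineage and tissue. The UN livers lie above all other livers for EIF3C (at least 327 CPM against at most 7.34). The same holds for the QU livers in EIF3D (2644 against 1380) and the YA livers in EIF4EBP1 (933 against 120).

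EIF3C, a core eIF3 subunit, was at 327 and 450 CPM in UN livers, with the UN intestine at 373 and the UN skin at 727. In the other livers it was at 0 to 7.34 CPM, and the 0 values were all in livers of multi-tissue animals. The UN contrast was past the threshold (edgeR adjusted p = 0.000136), with a fitted log2 value of 12.28 that rests on those 0 values and was 6.46 without the multi-tissue livers. EIF3D, the eIF3 subunit that can itself bind the cap, was at 3611 and 2644 CPM in QU livers, against 1380, 650 and 809 in HC1, 642, 617 and 245 in HC3, 715, 610 and 456 in LE and 424 and 644 in YA. In UN it had 0 and 0.125 CPM, so EIF3C and EIF3D stood at opposite ends in UN. The QU contrast for EIF3D gave 5.35 ± 0.64 (log2, SE, edgeR adjusted p = 0.000124), and the QU intestine, at 550 CPM, did not share the high level of the QU livers. The mean of the other lineages holds the UN livers near 0, which raises the log2 value of the QU contrast. In fit CPM the lower QU liver was 2.78 times the highest liver of another lineage, HC1 liver 1.

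Intestine was compared with liver over the 5 tables that hold both, in 17 libraries, with edgeR's quasi-likelihood test, lineage and a term for multi-tissue livers. With that term, the fitted difference is taken from the livers of single-tissue animals, which are not the animals that gave the intestines. Of the 25 members in all 5 tables that passed the filter, 1 was called, EIF2S2, against 4.08% of 2821 symbols (2.06% higher and 2.02% lower in intestine). At an unadjusted p under 0.05 there were 3 members and 520 symbols. DESeq2 called 4 members and 21.6% of symbols, and edgeR called 2 without the term for multi-tissue livers (4.93%) and 2 on the symbols of all 6 tables (5.37%). The median log2 difference of the members was -0.07 and that of all symbols 0.40, and 12 of 25 members had a positive value against 61.1% of symbols.

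EIF2S2 fell in intestine. It was at 181 CPM in the HC1 intestine (livers 534 to 643), 182 in LE (521 to 581), 279 in QU (391 and 688), 156 in UN (430 and 583) and 141 in YA (403 and 493). Every intestine lay below every liver of its own table, with the liver mean 3.19, 3.04, 1.93, 3.25 and 3.18 times the intestine in HC1, LE, QU, UN and YA. Against the single-tissue livers alone, the whole-table log2 ratios were -1.72, -1.59, -0.48, -1.90 and -1.51 in the same order. The fit gave -2.37 ± 0.50 (log2, SE, edgeR adjusted p = 0.0219). Fit CPM was 407 ± 59.8 (SD, n = 5) in intestine and 1701 ± 612 (SD, n = 12) over all livers. The fitted value refers to the single-tissue livers, whose mean was 2084. The fitted fall, with TMM scaling on the shared symbols, was larger than every whole-table ratio above, which has no such scaling. Without the term for multi-tissue livers the fitted value was -2.05 (edgeR adjusted p = 0.0484). With the animal as a replicate block, which pairs tissues of 1 animal, the value was -1.46 and the call was lost (edgeR adjusted p = 0.294), and in that fit edgeR called 0 members and 0% of symbols, with 2 members and 574 symbols at an unadjusted p under 0.05. The call was also lost on leaving out the HC1, LE, QU or YA intestine (edgeR adjusted p = 0.0697, 0.0647, 0.0542 and 0.0618), LE liver 1 (0.0564) or UN liver 2 (0.0526). Beside this, the summed smooth muscle markers were at 1906 to 7597 CPM in intestines and 44.4 to 1818 in livers, and their part in the result was not tested.

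**Figure D3:**
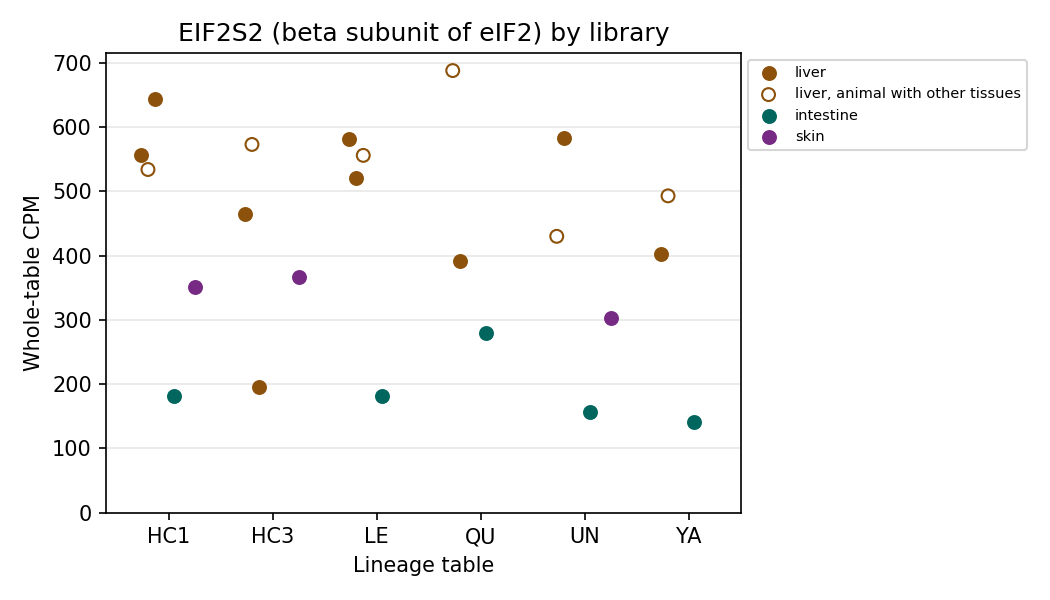
Points give the whole-table CPM of EIF2S2 in every library, by lineage and tissue. Each of the 5 intestines (141 to 279 CPM) lies below every liver of its own lineage, and the HC1 and UN skins (351 and 303 CPM) lie between the 2 tissues.

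Of the other eIF2 subunits, EIF2S1 did not pass edgeR's test, at -0.88 ± 0.48 (log2, SE, edgeR adjusted p = 0.358), and was called by DESeq2 at -0.89 (adjusted p = 0.0156). It was at 245 CPM in the HC1 intestine, 215 in LE, 462 in QU, 340 in UN and 320 in YA. The HC1 and LE intestines lay below their livers, the UN and YA intestines inside the liver range and the QU intestine above both QU livers. The whole-table log2 ratios of EIF2S1 to single-tissue livers were -0.44 in HC1, -0.33 in LE, 0.69 in QU, -0.01 in UN and 0.16 in YA. All of these lay above the TMM-scaled fitted value. EIF2S3 was in the HC1 and YA tables only of these 5 and so was not tested, with intestines at 344 and 405 CPM against livers at 425 to 492 and 363 to 545. EIF3D gave -1.88 ± 0.76 (log2, SE, edgeR adjusted p = 0.200) and was called by DESeq2 at -1.76 (adjusted p = 0.0164).

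EEF2 showed the reverse position in the lineages where its liver level was low. It was at 221 CPM in the HC1 intestine (livers 12.9 to 49.0), 220 in LE (8.85 to 9.21), 158 in QU (10.3 and 2.82) and 80.8 in YA (7.30 and 9.34), above every liver of the table in all 4. In UN, where the livers were at 9217 and 12630, the intestine was at 9789, inside their range. The pooled value of 2.63 ± 0.75 (log2, SE) did not pass the threshold (edgeR adjusted p = 0.0648). It passed without the term for multi-tissue livers (edgeR adjusted p = 0.0226), on the symbols of all 6 tables (0.0284) and in DESeq2 (adjusted p = 0.000306). It also passed without the UN intestine (edgeR adjusted p = 0.0340, log2 value 3.09). In the other 22 refits EEF2 did not pass, among them the fit with the animal as a replicate block (2.97, edgeR adjusted p = 0.181). Without the LE intestine the value was 2.06 (edgeR adjusted p = 0.242), and without the multi-tissue livers it was 2.65. Skin differed in the same way in HC1, at 128 CPM against livers up to 49.0. The HC3 and UN skins also lay above their livers, at 16387 CPM against at most 11058 and 13772 against at most 12630.

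**Figure D4:**
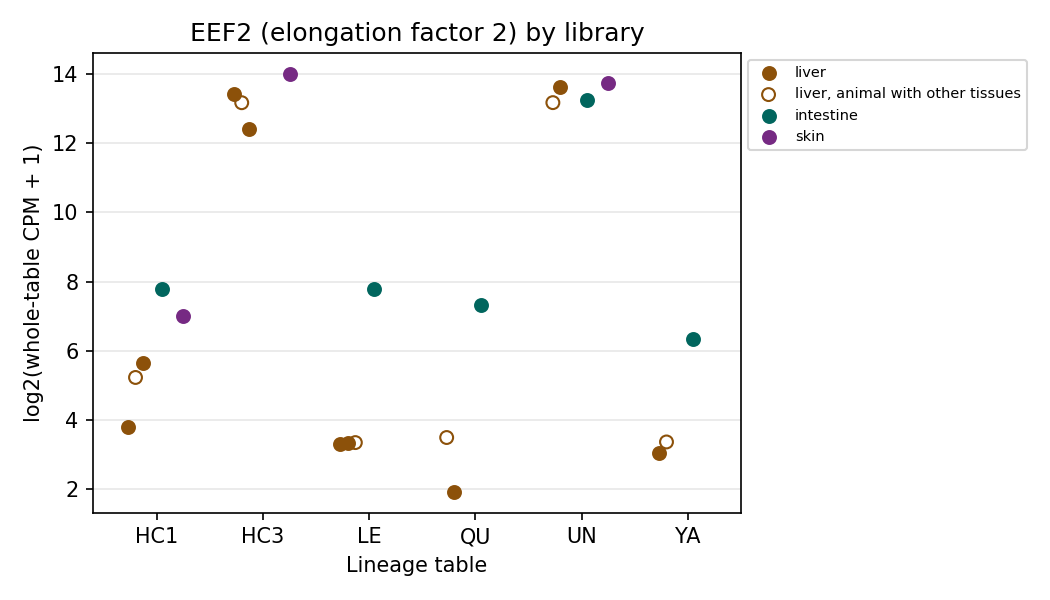
Points give the whole-table CPM of EEF2 (log axis) in every library by lineage and tissue. The HC3 and UN libraries of every tissue lie at or above 5456 CPM, and the 4 intestines of the other lineages (80.8 to 221 CPM) lie above their own livers (2.82 to 49.0 CPM).

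Members were also set against the liver range of their own table, listing a member where the other tissue was at least 2 times the highest liver or at most 1/2 of the lowest and the higher side reached 10 CPM. With 1 intestine or skin in a table this is a description with no test. Shares were taken over the members, or over all rows, that reached 10 CPM in that tissue or in every liver of the table. A row that was not high in the livers was therefore counted only where the other tissue reached 10 CPM. Higher members were 5 of 34 in the HC1 intestine (14.7%, against 30.4% of all rows), 6 of 35 in LE (17.1% against 31.2%), 10 of 32 in QU (31.2% against 48.2%), 1 of 27 in UN (3.70% against 27.4%) and 6 of 29 in YA (20.7% against 30.9%). Lower members were 4 in the HC1 intestine (11.8% against 9.98%), 2 in LE (5.71% against 10.8%), 1 in QU (3.12% against 6.56%), 3 in UN (11.1% against 15.4%) and 4 in YA (13.8% against 13.4%). In every intestine the share of members above the liver range was thus below that of all rows so counted, a difference that was not tested. The sets differ in make-up, as 53.7% of member rows were high in livers against 32.8% of all rows. The difference can therefore not be read as particular to the members. Over intestines and skins and both directions, 64 of 247 member values were outside the liver range (25.9%, against 46.8% of all rows). At 4-fold there were 28 (11.3% against 28.2%), and without the multi-tissue livers 97 of 249 (39.0% against 58.1%).

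Besides EEF2, several members were outside the liver range in more than 1 intestine. EIF5B, the GTPase that joins the ribosomal subunits, was above it in 3, at 288 CPM in HC1 (livers 66.1 to 126), 206 in QU (47.4 and 60.6) and 15.9 in YA (3.51 and 0). EIF2B5 was above it in QU, at 63.4 CPM against 14.1 and 29.6, and in YA, at 17.1 against 6.47 and 0. EIF4G3, a scaffold related to EIF4G1, was above it in LE, at 11.7 CPM against 0.728 or below, and in QU, at 223 against 46.7 and 72.3. EIF4G1 was above it in HC1, at 12.6 CPM against 2.08 or below, and in YA, at 28.9 against 12 and 0.265. EIF3C was above it in HC1, at 15.3 CPM against 7.34 or below, and in QU, at 11.7 against 0 and 4.88. The kinase EIF2AK3 was above it in QU, at 52.8 CPM against 22.7 and 13.8, and in UN, at 28 against 10.4 and 4.06. On the lower side, EIF6 was at 113 CPM in the HC1 intestine against 231 to 276 in livers and at 58.9 in LE against 155 to 229, while in UN it was at 89.8 against 168 and 187, short of the 2-fold rule. EIF1B, a paralog of the start codon factor EIF1, was at 18.4 CPM in the UN intestine against 88.0 and 122 and at 23.3 in YA against 95.9 and 184, and EIF1 was at 234 in the YA intestine against 521 and 634. The fit gave EIF5B 0.75 ± 1.22 (log2, SE), which did not pass (edgeR adjusted p = 0.796).

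**Figure D5:**
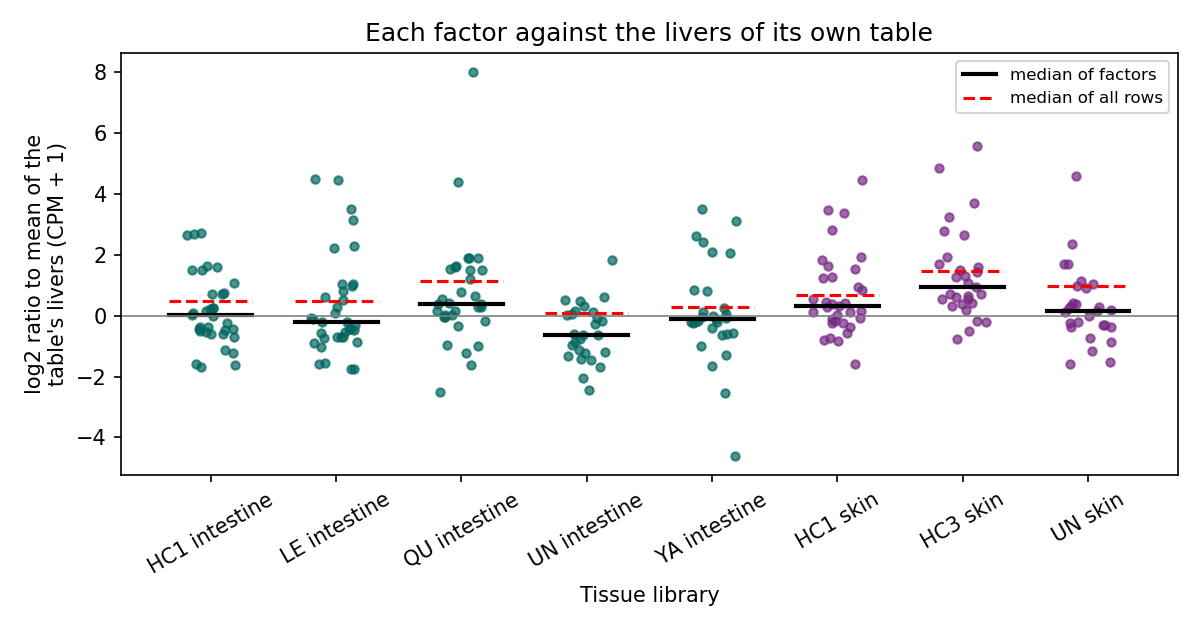
Points give the log2 ratio of a member's level in an intestine or skin to the mean of the livers of its table. Only members and rows reaching 10 CPM in that tissue or in every liver are used, with the median of each set marked. The members' median lies below that of all such rows in all 8 libraries, from -0.62 against 0.10 in the UN intestine to 0.93 against 1.46 in the HC3 skin. Rows not high in livers enter only through the tissue, so the gap cannot be read as particular to the members, which was not tested.

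The median log2 ratio of intestine to liver mean was taken over the members reaching 10 CPM in the intestine or in every liver. It was 0.01 in HC1 (all such rows 0.48), -0.20 in LE (0.47), 0.37 in QU (1.13), -0.62 in UN (0.10) and -0.10 in YA (0.28). In skin it was 0.32 in HC1 (0.69), 0.93 in HC3 (1.46) and 0.17 in UN (0.98). A row not high in the livers entered only where the other tissue reached 10 CPM, which favours high ratios. More member rows than all rows were high in livers (53.7% against 32.8%), so the medians do not compare like sets. The members that were low in a table's livers were mostly low in its other tissues too: those reaching 10 CPM were 3 of 24 in the HC1 intestine (12.5%, against 14.1% of all low rows), 5 of 17 in LE (29.4% against 20.1%), 4 of 13 in QU (30.8% against 28.5%), 0 of 17 in UN (against 13.2%) and 5 of 19 in YA (26.3% against 21.2%). EIF5A, low in HC3, QU and YA livers, was at 6.27, 3.52 and 3.54 CPM in the HC3 skin and the QU and YA intestines. Other eIF5A symbols were higher there, with EIF5A2 at 247 CPM in the HC3 skin and EIF5AL1 at 273 in the QU intestine. How reads were split among these symbols was not checked.

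Skin was compared with liver over HC1, HC3 and UN in 11 libraries by the same test. None of the 37 members tested was called by edgeR, against 2.24% of 4736 symbols (1.39% higher and 0.845% lower in skin), and none had an unadjusted p under 0.05, while 828 symbols did. DESeq2 called 16.6% of symbols and 1 member, EIF2S2, at a log2 value of -1.62 (adjusted p = 0.0390), for which edgeR gave -1.55 ± 0.72 (adjusted p = 0.300). The 3 skins held EIF2S2 at 351, 367 and 303 CPM in HC1, HC3 and UN, below every liver of the table in HC1 and UN and inside the liver range of 196 to 573 in HC3. The median log2 difference of the members was 0.56 and that of all symbols 0.34. In this fit the members' median thus lay above that of all symbols, while within each table it lay below that of the rows counted.

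Skins were set against the liver range of their table in the same way, over members and rows counted as for intestines. Here 8 of 33 members were higher in the HC1 skin (24.2%, against 32.5% of all rows so counted), 9 of 29 in HC3 (31.0% against 50.2%) and 4 of 28 in UN (14.3% against 44.0%). Lower members were 0 in HC1 (against 8.39%), 0 in HC3 (against 6.78%) and 1 in UN, EIF1B (3.57% against 8.92%). EEF2K, the kinase that inactivates EEF2, was at 59.2 CPM in the HC1 skin against 12.8 or below in livers and at 167 in HC3 against 7.37 or below. It was also above the livers in the LE intestine, at 25.9 CPM against 2.08 to 6.91. EIF5A2 was at 247 CPM in the HC3 skin against 65.4 to 90.9 and at 22.9 in UN against 0 and 0, and EIF3K was at 97.2 CPM in the HC3 skin against 1.87 or below. Among the eIF2 kinases, EIF2AK2 (PKR, which senses double-stranded RNA) was in the HC1 table only, at 34.1 CPM in skin, 19 in intestine and 1.49 to 2.54 in livers. The summed skeletal muscle markers were at 6385 to 8457 CPM in skins and 0 to 3628 in livers, and the hepatocyte markers at 15212 CPM in the HC3 skin beside 71430 to 121506 in HC3 livers. The HC3 skin also held 14751 CPM of intestinal epithelium markers. The part of any of these markers' cells in the skin values was not tested.

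Some members stood out in 1 library of a group. EIF4A1 was at 12234 CPM in QU liver 1 and 1828 in QU liver 2, with the QU intestine at 2287. The acinar markers, 6 of 12 in the QU table, moved the other way, at 37.9 and 5737 CPM. EEF1A1 was at 519 CPM in UN liver 1 and 4922 in UN liver 2, where the acinar markers, 7 of 12 in the table, were at 2459 and 27518. EIF3M was at 3901 CPM in LE liver 2 against 725 and 704 in LE livers 1 and 3, and EEF1E1 was at 28.8 CPM in HC1 liver 2 against 616 and 494. EIF5AL1 was at 273 CPM in the QU intestine against 0 and 0.125 in QU livers, and EEF1A2, an isoform known from neurons and muscle, was at 41.3 CPM in the YA intestine against 3.70 and 10 in YA livers. QU liver 1, UN liver 1 and HC1 liver 2 are multi-tissue livers, and the part of that in these values was not tested.

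Related genes outside the family were read from lists of termination and recycling factors, mRNA-binding proteins, mitochondrial translation factors, the integrated stress response, mTOR signalling to translation and tRNA synthetases. In the tissue comparisons none of them was called by edgeR: the intestine fit tested 3, 4, 2, 4, 4 and 7 of them and the skin fit 6, 5, 4, 2, 6 and 15. The lineage test called 3 of 3, 2 of 4, 0 of 1, 2 of 2, 4 of 4 and 6 of 7, beside 78.7% of all symbols. ATF4, the transcription factor whose translation rises when eIF2 is phosphorylated, gave -2.83 ± 1.0 (log2, SE) in intestine and did not pass (edgeR adjusted p = 0.144). The other stress response genes tested there had positive values and did not pass either. DDIT3 gave 0.49 (edgeR adjusted p = 0.824), PPP1R15B 1.49 (0.279) and XBP1 1.20 (0.66).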

How the data were processed

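Raw read counts per transcript row were deposited by the authors as 1 table per lineage. The submitters' processing notes name BWA and SAMtools, and versions and settings are not given in the sources used here. Columns, lineages and tables were matched to titles, whose animal number and tissue stand in the column names. The sample descriptions disagree: 18 of 23 name another lineage's table, and they were not used. Counts on unnamed rows (at most 0.169% of a library) were left out. Whole-table CPM and fit CPM (TMM-scaled) were computed here. Counts were tested with edgeR 4.0.16 (R 4.3.3) quasi-likelihood fits, a filter at a minimum count of 10, and adjustment over all symbols tested at a threshold of 0.05; DESeq2 1.42.0 was an alternative. Standard errors are the log2 value divided by the square root of F. Log2 ratios within a table added 1 CPM, and plain ratios added nothing. The fits were also run on simulated counts, built from 1 mean profile shared by all libraries with changes set in chosen symbols. That simulation held neither the lineage differences nor the excess of rows at 0 in the multi-tissue livers, so it cannot show how the fits do on these data. Replicates are separate animals. Tissues of the same animal were paired through the titles, and a fit with that animal block was an alternative. Others changed scaling, filter, symbols or libraries. The members and gene lists were chosen with earlier results of these data known. Named members were those called, those high in 1 lineage's livers only, up to 4 with the highest mean CPM per role, and others named after their values were seen.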

Additional observations from a re-analysis of the deposited data

Results flagged for a closer look

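The log2 ratio of intestine to liver mean was screened for the 35 members held in at least 4 of the 5 tables with an intestine. In 6 of them the ratio of 1 lineage lay far from the other 4, where chance alone would mark about 1 in 20 groups. The screen was not run on all symbols, so no excess particular to the members can be read from it. In QU, EIF3D was at -2.50 against -0.54 to -0.09 elsewhere, EIF4A1 at -1.62 against -0.32 to 0.21, EIF2S2 at -0.95 against -1.69 to -1.60, and EEF1E1 at 0.79 against -0.12 to 0.13. The EIF3D ratio of -0.09 is that of UN, where the symbol was at 0 CPM in intestine and at most 0.125 in livers. EIF3J was at 1.74 in YA against -0.59 to 0.04, and EIF3K at 4.50 in LE against -0.62 to 0.55, both in tables whose livers held almost no count of that symbol. The low EIF4A1 ratio goes with the high EIF4A1 level of QU liver 1.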

How the results depend on the processing

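The count of members called in intestine was 1 and became 4 with DESeq2, 2 without the term for multi-tissue livers, 2 on the symbols of all 6 tables, 0 with the replicate block (animals paired across tissues, which gave 0 in skin too) and 0 to 2 on leaving out 1 library. In skin it was 0 and became 1 with DESeq2, and stayed 0 on leaving out each library. The count of members differing from other lineages in HC3 was 10 and became 16 with DESeq2 and 19 without the multi-tissue livers; without their term it fell from 12 to 7 in QU and from 11 to 7 in YA. Leaving out 1 liver gave 9 to 17 in HC1, 5 to 12 in HC3, 7 to 13 in LE, 4 to 13 in QU, 6 to 14 in UN, 4 to 12 in YA and 17 to 18 in the test over lineages. Members high in 1 lineage only numbered 6 in place of 3 at a ratio of 1 and 6 without the multi-tissue livers. Member values outside the liver range numbered 64, 28 at 4-fold and 97 without the multi-tissue livers. Of 1688 refitted values for 76 pairs of a member and a comparison, 1550 kept their direction and call, 132 lost the call, 6 gained it and 0 reversed. The counts on leaving out 1 library or liver stand without the share of all symbols called in the same refits, so they show no change particular to the members. Lineage comparisons could not be paired, with 1 liver an animal. Lower depth in intestines and skins limits values near their floor.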
